A study of Mus musculus with 8 samples.

Results

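The Notch genes of cultured mouse aortic smooth muscle cells were compared between cells given the adenovirus titled AdN5, labelled NFAT5 overexpression, and cells given the adenovirus titled AdPl, labelled control. The set held 10 of the 24704 genes measured, chosen by symbol and matched to the arrays by Entrez identifier, and each had 1 probe set. They were the receptors Notch1, Notch2 and Notch3, the ligands Jag1 and Dll4, the DNA-binding factor Rbpj, and the targets Hes1, Hey1, Hey2 and Heyl. Total RNA of 4 AdN5 and 4 AdPl samples was measured on single-colour Affymetrix arrays. Both groups had 24 h of virus followed by 72 h of cholesterol (10 µg/ml), so the comparison holds no array without virus or without cholesterol. No mouse strain or age is named, and whether replicates are separate cultures is not stated, so p-values cover only the spread among these samples and that spread may be technical.

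Notch receptors are membrane proteins that are activated by Jagged or Delta-like ligands on a neighbouring cell. Ligand binding leads to cleavage of the receptor, and the released intracellular domain enters the nucleus, where it joins RBPJ and Mastermind proteins at target genes. The best known targets are the Hes and Hey genes, which encode basic helix-loop-helix repressors. In arteries Notch3 is the receptor most closely tied to smooth muscle, where the pathway acts in differentiation of the muscle wall, and mutations of human NOTCH3 cause the small-vessel disease CADASIL. Receptor cleavage is a protein event, so transcript levels of these genes do not measure it.

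The values are the deposited RMA levels on the log2 scale, in which a difference of 1 is a doubling. Across genes, correlations between arrays were 0.990 to 0.992 within AdN5, 0.992 to 0.993 within AdPl and 0.989 to 0.992 for pairs of 1 AdN5 and 1 AdPl array. The groups separated on the first principal component, at 7.49 to 19.9 in AdN5 and -17.1 to -6.80 in AdPl. On the second principal component AdN5 replicate 4 (24.7) and AdPl replicate 3 (14.2) lay at the positive end and AdN5 replicate 3 (-19.5) at the negative end. The Nfat5 probe set did not have a higher level in AdN5. Its level averaged 6.97 ± 0.072 in AdN5 and 7.16 ± 0.089 in AdPl (SD, n = 4 each), a log2 fold change of -0.19 ± 0.078 (SE; limma adjusted p = 0.360; exact two-sided permutation p = 0.0571, smallest possible 0.0286). Neither the positions of its probes nor the sequence carried by the virus is given here, so whether its probes detect the viral transcript is unknown, and its level does not check the labels. Groups are called by their virus titles, and every direction is drawn from the labels.

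Of the 10 Notch genes, 0 passed an adjusted p of 0.05 in limma, against 0.777% of all genes tested (192 genes). At an unadjusted limma p under 0.05 there were 4 of 10, against 12.5% of all genes. These were Notch2, Notch3 and Rbpj, each with a higher mean in AdN5, and Hey2, with a lower mean in AdN5. For 1 of the 10, Hey2, the groups did not overlap, as was so for 8.78% of all genes in either direction and for 4.56% with AdN5 below AdPl. The median log2 fold change of the 10 was -0.032, against 0.0042 over all genes, with 5 above 0 and 5 below 0. The changes of 5 of the 10 lay outside the 5th to 95th percentile range of all genes, which extended from -0.29 to 0.28 and leaves out 10% of genes by construction. These were Notch2, Notch3 and Rbpj above that range and Dll4 and Heyl below it. The 95% intervals of Dll4 and Heyl included 0. With 1 array left out, the smallest changes were 0.253 (Notch2), 0.193 (Notch3), 0.275 (Rbpj), -0.193 (Dll4) and -0.183 (Heyl). These lay inside the percentile range of the fit with all 8 arrays.

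**Figure D1:**
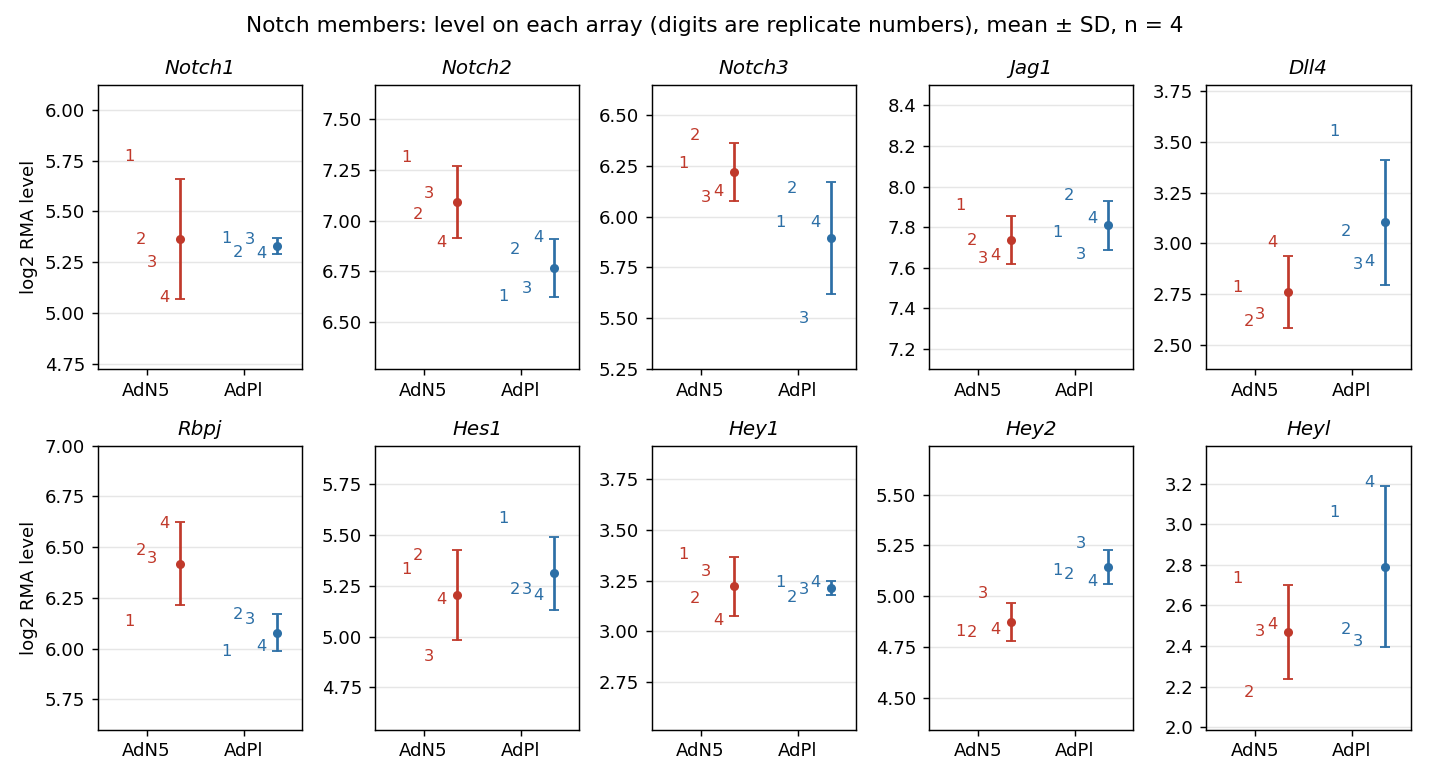
Level of each Notch gene on each array (y axis, log2 RMA level; every panel spans the same range around its own middle). Digits are replicate numbers, with AdN5 at the left and AdPl at the right, and the dot with bar is the mean ± SD over 4 arrays. In the Hey2 panel the AdN5 arrays (4.82 to 5.01) lie below the AdPl arrays (5.07 to 5.26), and in the other panels the groups overlap.

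The receptors Notch2 and Notch3 had higher mean levels in AdN5 by 0.33 each on the log2 scale, while Notch1 differed by 0.036. Notch2, a receptor with broad expression in mesenchymal cells, had levels of 7.31, 7.03, 7.14 and 6.89 in AdN5 replicates 1 to 4, against 6.63, 6.86, 6.66 and 6.92 in AdPl replicates 1 to 4. The groups overlapped at 1 point, since AdN5 replicate 4 lay just under AdPl replicate 4. The means were 7.09 ± 0.18 in AdN5 and 6.77 ± 0.14 in AdPl (SD, n = 4 each), a log2 fold change of 0.33 ± 0.11 (SE) or a ratio of 1.25, with a 95% interval from 0.080 to 0.57 (limma adjusted p = 0.257). The difference thus did not pass over all genes, although its unadjusted limma p was 0.0148.

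Notch3, the receptor of arterial smooth muscle, had levels of 6.26, 6.40, 6.09 and 6.12 in AdN5, against 5.97, 6.14, 5.50 and 5.97 in AdPl. AdPl replicate 3 was the lowest of all 8 arrays, and AdPl replicate 2 lay above AdN5 replicates 3 and 4. The log2 fold change was 0.33 ± 0.14 (SE; 95% interval 0.014 to 0.64; limma adjusted p = 0.377). Without AdPl replicate 3 it was 0.19, so this array set much of the size.

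Notch1, a receptor best known from endothelial cells and lymphocytes, had levels of 5.77, 5.36, 5.25 and 5.08 in AdN5, against 5.37, 5.30, 5.36 and 5.29 in AdPl. The AdN5 arrays lay on both sides of the narrow AdPl range, with an SD of 0.30 in AdN5 and of 0.041 in AdPl. The log2 fold change was 0.036 ± 0.13 (SE; 95% interval -0.26 to 0.34; limma adjusted p = 0.951), and without AdN5 replicate 1, the highest array, it was -0.099. Its interval still allows a change as large as the values of Notch2 and Notch3.

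Neither ligand passed. Jag1, the Jagged ligand that smooth muscle cells and endothelium both present, had levels of 7.91, 7.73, 7.65 and 7.66 in AdN5, against 7.77, 7.96, 7.67 and 7.84 in AdPl. The groups covered nearly the same range, and the log2 fold change was -0.072 ± 0.093 (SE; 95% interval -0.28 to 0.14; limma adjusted p = 0.820). It was -0.024 without AdPl replicate 2 and -0.13 without AdN5 replicate 1. Dll4, a Delta-like ligand best known from arterial endothelium, had levels of 2.78, 2.61, 2.65 and 3.00 in AdN5, against 3.55, 3.06, 2.90 and 2.91 in AdPl. AdPl replicate 1 was the highest array, and AdN5 replicate 4 lay above AdPl replicates 3 and 4. The log2 fold change of Dll4 was -0.34 ± 0.15 (SE; 95% interval -0.69 to 0.0042; limma adjusted p = 0.407), and -0.19 without AdPl replicate 1. Dll4 was dim in both groups, meaning that its mean lay under the middle value of all probe sets (3.76). RMA compresses differences of dim genes toward 0, so the size of this value is uncertain.

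Rbpj, which encodes the DNA-binding protein that every Notch receptor acts through, had the largest positive difference of the 10 genes. Its levels were 6.13, 6.48, 6.44 and 6.61 in AdN5, against 5.99, 6.17, 6.14 and 6.01 in AdPl. AdN5 replicates 2, 3 and 4 lay above every AdPl array, and AdN5 replicate 1 lay under AdPl replicates 2 and 3. The means were 6.42 ± 0.20 in AdN5 and 6.08 ± 0.092 in AdPl (SD, n = 4 each), a log2 fold change of 0.34 ± 0.11 (SE; 95% interval 0.096 to 0.59; limma adjusted p = 0.235; unadjusted p = 0.0115).

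Promoters were read from a RefSeq table of mouse genes (build GRCm38.p6), which gives 250 bases before and 50 after an annotated start. It held entries for 7 of the 10 genes, Notch1, Notch2, Notch3, Jag1, Dll4, Hey2 and Rbpj, the last with 2 overlapping entries. Both strands were searched for GTGGGAA, the core bound by RBPJ, for TGGAAA, the core bound by NFAT5, for the longer TonE consensus, which begins with that core, and for the E-box CACGTG bound by Hey repressors. The 3 genes with the smallest unadjusted p, none of which passed the adjusted p, are shown 5′ to 3′ on the gene's own strand. Capitals mark GTGGGAA or TGGAAA on either strand, and the Notch2 stretch holds neither. Hey2 lies at chr10:30842734-30843033 on the minus strand, Rbpj (the entry farther upstream) at chr5:53590096-53590395 on the plus strand and Notch2 at chr3:98013288-98013587 on the plus strand.
Hey2: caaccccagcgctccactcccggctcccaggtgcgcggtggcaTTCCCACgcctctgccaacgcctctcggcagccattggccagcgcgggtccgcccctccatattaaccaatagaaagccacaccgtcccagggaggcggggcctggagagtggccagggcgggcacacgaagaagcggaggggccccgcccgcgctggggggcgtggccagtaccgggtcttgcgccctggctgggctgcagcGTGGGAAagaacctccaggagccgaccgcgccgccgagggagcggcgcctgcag
Rbpj: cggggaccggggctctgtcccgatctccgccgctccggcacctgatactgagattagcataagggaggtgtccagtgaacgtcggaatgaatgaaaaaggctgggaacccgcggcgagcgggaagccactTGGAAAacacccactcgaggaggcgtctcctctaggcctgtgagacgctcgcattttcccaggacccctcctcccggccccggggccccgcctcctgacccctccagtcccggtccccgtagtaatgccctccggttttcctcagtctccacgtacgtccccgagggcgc
Notch2: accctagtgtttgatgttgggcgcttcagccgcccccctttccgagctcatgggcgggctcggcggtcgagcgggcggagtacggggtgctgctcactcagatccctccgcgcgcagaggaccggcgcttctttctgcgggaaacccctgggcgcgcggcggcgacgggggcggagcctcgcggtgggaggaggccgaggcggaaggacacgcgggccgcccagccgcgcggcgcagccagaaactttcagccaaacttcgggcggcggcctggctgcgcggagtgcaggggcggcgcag
The Hey2 stretch held GTGGGAA 2 times, once reversed (TTCCCAC) 207 to 201 bases before the start and once across the start, from 4 bases before it to base 3 of the gene. Of all 32851 promoter entries 6.38% held GTGGGAA at least once and 0.256% at least 2 times. The Rbpj entry shown held TGGAAA from 120 to 115 bases before the start, a core found in 21.4% of all entries. No other entry of the 8 held TGGAAA, the other Rbpj entry included, and only the Hey2 entry held GTGGGAA. The TonE consensus (4.96% of all entries) and CACGTG (7.15%) were in 0 of the 8 entries, and GTGGGAA and TGGAAA overlapped nowhere in them. A match describes the letters in this window and does not show that a factor binds there. Any link between matches and levels was not tested.

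Among the targets, Hey2 had a lower mean in AdN5, Heyl and Hes1 had lower means with wide intervals, and Hey1 hardly differed. Hey2, the Hey repressor most studied in the heart and arteries, had levels of 4.83, 4.82, 5.01 and 4.84 in AdN5, against 5.13, 5.11, 5.26 and 5.07 in AdPl. Every AdN5 array lay below every AdPl array, and the gap between the groups was small, with AdN5 replicate 3 closest to the AdPl arrays. The means were 4.87 ± 0.093 in AdN5 and 5.14 ± 0.082 in AdPl (SD, n = 4 each), a ratio of 0.830. The log2 fold change was -0.27 ± 0.080 (SE; 95% interval -0.45 to -0.089), with an unadjusted limma p of 0.00781 and an adjusted p of 0.202. Hey2 had the smallest p of the 10 genes and did not pass over all genes.

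Hes1, a repressor that Notch and several other pathways induce, had levels of 5.33, 5.40, 4.90 and 5.18 in AdN5, against 5.58, 5.23, 5.23 and 5.20 in AdPl. AdPl replicate 1 stood above the other AdPl arrays, which lay close together. Hes1 had a log2 fold change of -0.11 ± 0.13 (SE; 95% interval -0.40 to 0.18; limma adjusted p = 0.802), and it was -0.0077 without AdN5 replicate 3, the lowest array, and -0.019 without AdPl replicate 1. Hey1, which encodes a relative of Hey2 with overlapping function in vessels, had levels of 3.38, 3.16, 3.29 and 3.05 in AdN5, against 3.24, 3.17, 3.20 and 3.24 in AdPl. The AdPl arrays lay inside the AdN5 range. Hey1 had a log2 fold change of 0.0083 ± 0.086 (SE; 95% interval -0.19 to 0.20; limma adjusted p = 0.983), and -0.044 without AdN5 replicate 1. Heyl, a Hey gene expressed in smooth muscle as a target of Notch3, had levels of 2.73, 2.17, 2.47 and 2.50 in AdN5, against 3.06, 2.48, 2.42 and 3.20 in AdPl. AdPl replicates 1 and 4 were high and the other AdPl arrays lay within the AdN5 range. Its log2 fold change was -0.32 ± 0.19 (SE; 95% interval -0.75 to 0.11; limma adjusted p = 0.555), and -0.18 without AdPl replicate 4. Hey1 and Heyl were dim in both groups, as Dll4 was.

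**Figure D2:**
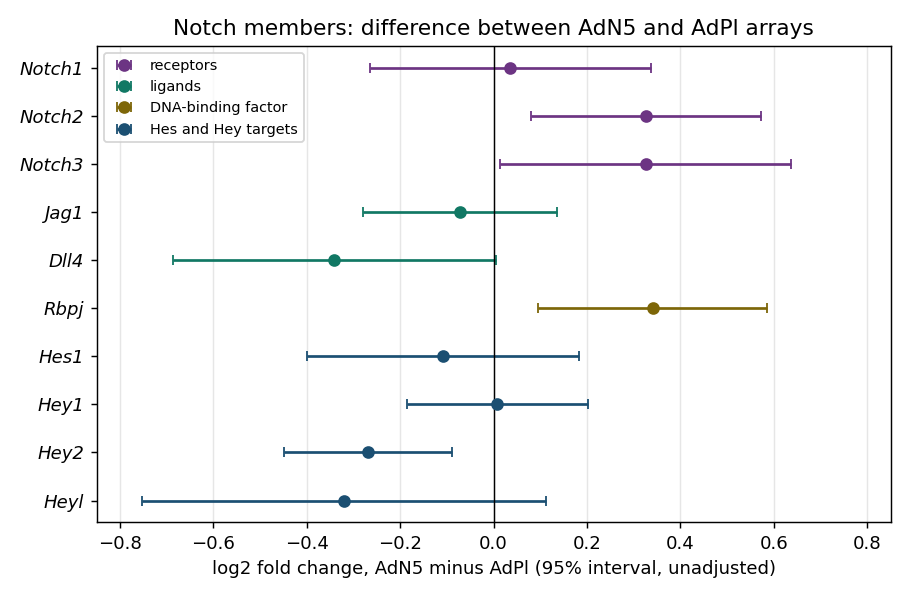
Log2 fold change of each Notch gene (x axis, AdN5 minus AdPl), with dots for the limma estimate and bars for its unadjusted 95% interval, coloured by role. The intervals of Notch2, Notch3 and Rbpj lie above 0 and that of Hey2 lies below 0, while those of the other 6 genes include 0.

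The arrays did not order the Notch genes alike. AdN5 replicate 1 was the highest AdN5 array for 5 genes (Notch1, Notch2, Jag1, Hey1 and Heyl) and the lowest for Rbpj. AdPl replicate 3 was the lowest AdPl array for 4 genes (Notch3, Jag1, Dll4 and Heyl) and the highest for Hey2. With each array left out in turn, 3 to 5 of the 10 genes had an unadjusted p under 0.05 in limma, against 10.5% to 12.3% of all genes. Notch2, Rbpj and Hey2 were among them in all 8 fits, Notch3 and Dll4 in 3 each and Heyl in 1. In the same 8 fits 0 of the 10 passed the adjusted p. The log2 fold changes ranged from 0.25 to 0.39 for Notch2, from 0.28 to 0.44 for Rbpj and from -0.32 to -0.23 for Hey2. With AdPl replicate 3 and AdN5 replicate 4 both left out, Notch2, Dll4, Rbpj and Hey2 had an unadjusted p under 0.05, against 11.6% of all genes, and 0 of the 10 passed the adjusted p.

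**Figure D3:**
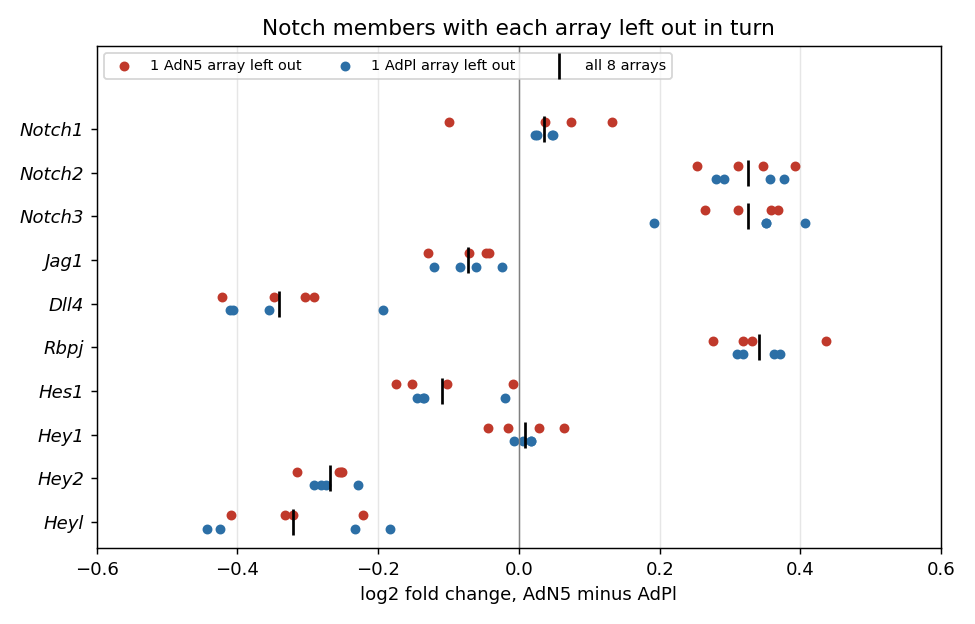
Log2 fold change of each Notch gene (x axis, AdN5 minus AdPl) with all 8 arrays (black bar) and with 1 array left out (red dots for an AdN5 array, blue dots for an AdPl array). Notch1 and Hey1 cross 0, and the value of Notch3 drops to 0.19 without AdPl replicate 3.

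Other genes of the pathway were read from 8 lists by role, of which 68 of 71 entries were measured. Of these 68 genes 1 rose, against 0.364% of all genes, 0 fell and 67 missed the threshold (0.777% of all genes called in either direction). At an unadjusted limma p under 0.05 there were 4 higher and 9 lower, against 6.24% of all genes higher and 6.29% lower. The median log2 fold change of the 68 was 0.014, against 0.0042 over all genes. The gene that rose was Pofut1, which encodes the fucosyltransferase that places O-fucose on the EGF repeats of Notch receptors, a sugar needed for ligand binding. Its levels were 7.06, 7.12, 7.09 and 7.13 in AdN5, against 6.64, 6.69, 6.75 and 6.44 in AdPl. All AdN5 arrays lay above all AdPl arrays, and the AdN5 arrays lay close together. Pofut1 had a log2 fold change of 0.47 ± 0.083 (SE; 95% interval 0.28 to 0.66; limma adjusted p = 0.0408). The call was lost with any 1 of the 8 arrays left out (adjusted p from 0.0654 without AdPl replicate 3 to 0.123 without AdPl replicate 1), while the log2 fold change ranged from 0.41 to 0.51.

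The rest of the glycosylation list had 4 genes that did not pass, with Mfng, a Fringe enzyme that extends the O-fucose, at the low end (-0.17). Among 6 other receptors and ligands 0 passed, with Dll1, a Delta-like ligand, at 0.27 ± 0.095 and Dlk1, a non-canonical ligand, at -0.14 ± 0.18 (SE), and 5 of the 6 were dim. Of 9 genes of receptor cleavage 0 passed. Their ends were Aph1a, a gamma-secretase subunit, at -0.31 ± 0.11 (limma adjusted p = 0.260), and Adam17, a protease that can cut Notch, at 0.076 ± 0.072. Of 12 genes of ligand endocytosis and receptor turnover 0 passed, between Neurl1a, a ubiquitin ligase of ligands, at -0.33 and Dtx1, a Deltex regulator of receptor traffic, at 0.25.

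Nuclear cofactors did not pass either. Among 7 coactivators the ends were Kat2b, an acetyltransferase of the activating complex, at -0.29 ± 0.077 (limma adjusted p = 0.161), and Snw1, which binds RBPJ and the receptor's intracellular domain, at 0.12. Among 11 corepressors the ends were both Groucho-type genes, Tle1 at -0.39 ± 0.10 (adjusted p = 0.162) and Tle4 at 0.31 ± 0.14 (adjusted p = 0.397), which lay in opposite directions. Of 7 genes in a list of other Hes genes and Bhlhe genes 0 passed. Its ends were Hes5, a target of Notch in neural cells, at 0.29 ± 0.16 and Hes3 at -0.15 ± 0.11. In this list 4 of the 7 were dim, all of them Hes genes. Of 11 reported Notch targets outside the Hes and Hey families 0 passed. Nrarp, a target that feeds back on the Notch complex, was dim in both groups and at 0.14 ± 0.086. Acta2, which encodes smooth muscle actin, was at -0.30 ± 0.071 (limma adjusted p = 0.113). When limma was run with a variance trend and robust options, 5 of the 68 pathway genes and 0 of the 10 Notch genes passed, against 3.16% of all genes in that fit. The 5 were Pofut1 and Cdkn1a (higher in AdN5) and Acta2, Kat2b and Pdgfrb (lower). Pdgfrb and Cdkn1a are named here because they passed in that fit. With an array left out, the list ends that moved by over 1.5 times were Dlk1 (-0.34 to -0.054), Mfng (-0.27 to -0.12), Dtx1 (0.11 to 0.33), Tle4 (0.19 to 0.41), Hes5 (0.16 to 0.44) and Hes3 (-0.20 to -0.079), none of them called.

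**Figure D4:**
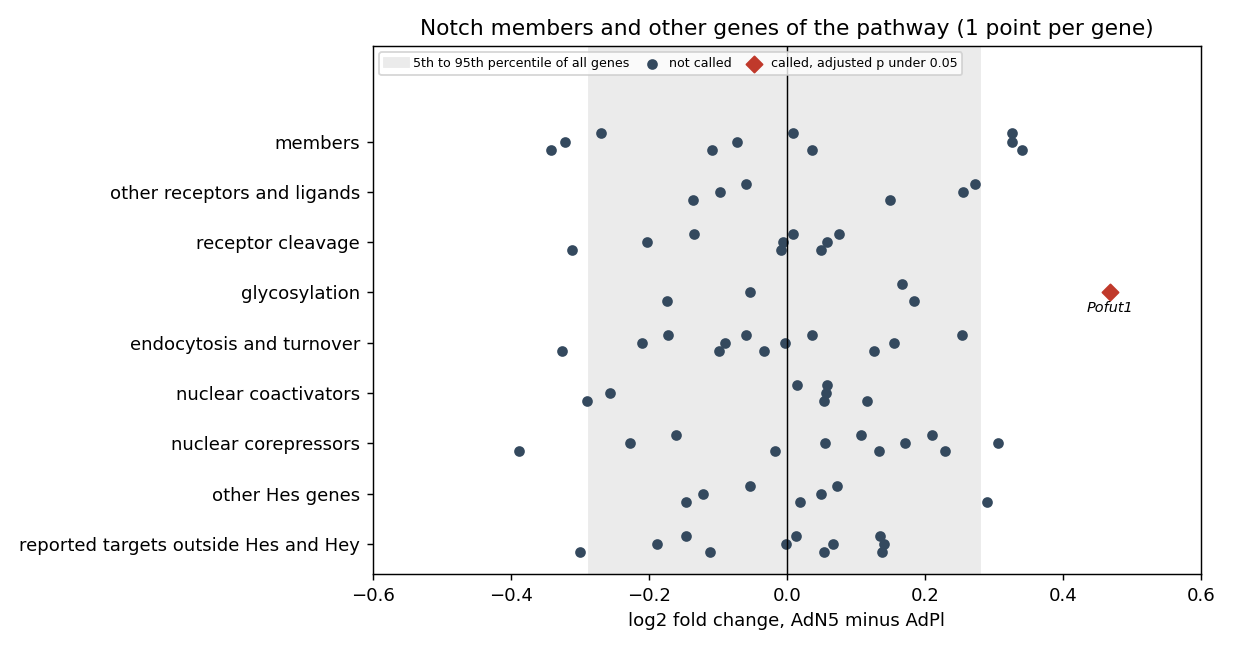
Log2 fold change (x axis, AdN5 minus AdPl) of the 10 Notch genes (top row) and of the other pathway genes by role, 1 point per gene, with the 5th to 95th percentile range of all genes shaded. Pofut1 (red diamond, 0.47) is the only called gene, and with all 8 arrays 5 of the 10 Notch genes lie outside the shaded range. The row of other Hes genes also holds Bhlhe genes.

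The smooth muscle markers Acta2, Tagln and Myh11 lay above the middle of the probe sets in both groups, and the macrophage and fibroblast lists differed between the groups. Acta2 averaged 11.74 in AdN5 and 12.04 in AdPl, Tagln 8.46 in AdN5 and 8.39 in AdPl, and Myh11 5.32 in both, while 3 of the 12 smooth muscle markers (Myocd, Des and Mylk) were dim in both groups. Of the 12 markers 0 were called, and their mean level per array overlapped, at 6.05 to 6.29 in AdN5 and 6.14 to 6.19 in AdPl. That mean can hide opposite changes, and 6 of the 12 lay above 0 and 6 below, from -0.30 to 0.33. At an unadjusted limma p under 0.05 there were 1 higher and 3 lower, against 6.24% of all genes higher and 6.29% lower. The groups did not overlap for 1 higher and 2 lower markers, against 8.78% of all genes in either direction. Of 11 macrophage markers 3 rose, against 0.364% of all genes, namely Adgre1 (0.68 ± 0.083), Laptm5 (0.53 ± 0.086) and Cd68 (0.52 ± 0.088). Their calls were kept in 8, 1 and 0 of the 8 fits that dropped an array. Per array, the macrophage list averaged 6.17 to 6.38 in AdN5, above 5.75 to 5.96 in AdPl. All 11 macrophage markers had a log2 fold change above 0. Of the 11, only 1 was dim in both groups, the general leukocyte marker Ptprc (3.60 in AdN5 and 3.34 in AdPl). Of 11 fibroblast markers 1 fell, against 0.413% of all genes, namely Ly6c1 (-1.24 ± 0.23, called in 1 of those 8 fits). In all 8 fibroblast markers were below 0, among them Cd34 (-0.53), Dpt (-0.35) and Pdgfra (-0.17), and 3 were above 0 (Cd248 at 0.089, Clec3b at 0.061 and Tcf21 at 0.0065). The mean of the list per array was 5.80 to 5.96 in AdN5, below 6.16 to 6.22 in AdPl.

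Endothelial markers bear on Dll4, Jag1 and Notch1, which endothelium also expresses. Of 12 endothelial markers 0 were called, and 5 were dim in both groups. Their mean per array overlapped, at 4.30 to 4.53 in AdN5 and 4.36 to 4.52 in AdPl. Opposite changes can cancel in such a mean, and 5 of the 12 lay above 0 and 7 below, from -0.31 to 0.35. Cdh5 was at 6.60 in AdN5 and 6.26 in AdPl, Pecam1 at 5.30 in AdN5 and 5.18 in AdPl, and Kdr, a defining endothelial receptor, was dim at 3.34 in AdN5 and 3.43 in AdPl. Of 6 lymphocyte markers 0 were called, and 5 were dim, among them Cd3e (3.36 in AdN5 and 3.20 in AdPl). RMA values have no true 0, so no marker is at 0 and dim means only a low rank. In RNA from whole cultures, a change in the number of cells of a type and a change in RNA per cell cannot be told apart. Whether the marker transcripts came from other cell types or from the smooth muscle cells was not tested. The part of other cell types in the Notch gene values was not tested either.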

How the data were processed

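The 8 arrays were grouped by their titles. The log2 values were deposited after RMA by the authors, per the submitters' processing notes, without a version; the build is not given in the sources used here, nor is the annotation of the probe sets. RMA corrects background, quantile normalises the arrays and summarises probe sets, so a shift of all genes could not be seen. Sorted values agreed within 0.0001 on 7 arrays, and those of AdN5 replicate 1 differed by at most 0.00183.

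Of 25428 probe sets 24705 had 1 gene symbol in the supplied probe table, 0 had several and 723 were not listed and stay unnamed. Where a symbol had more than 1 probe set, the brightest was used, which left 24704 genes. All 10 Notch genes matched a RefSeq table (GRCm38.p6) by Entrez identifier, with the same symbol. No filter on dim genes was applied.

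AdN5 and AdPl were compared with limma 3.58.1 in R 4.3.3 (lmFit, eBayes, two-sided, no covariates) over all genes, with Benjamini-Hochberg adjustment and a threshold of 0.05. Python 3.11.15 and matplotlib 3.10.9 searched promoters and drew figures. The scripts were tested on simulated data. The number of arrays limits the precision, with a median standard error of 0.11 per log2 fold change. The Notch genes, the pathway and marker lists and the tests were chosen with earlier results of these data known. The text names Nfat5, the 10 Notch genes, every called gene and both ends of each pathway list, and called and defining markers of each cell type; Pdgfrb, Cdkn1a, Myocd, Des, Mylk, Cd248, Clec3b and Tcf21 were named after their values were seen. List entries with no measured gene were not analysed here. Alternatives were the replicate block, median centring, quantile normalisation repeated, array weights, a variance trend with robust options, filters on dim genes (lower quartile or median of expression), every probe set by itself, each array left out in turn, AdPl replicate 3 and AdN5 replicate 4 both left out, an adjusted p under 0.01 and a change of at least 1.5-fold.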

Additional observations from a re-analysis of the deposited data

Results flagged for a closer look

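In groups of 4 arrays, an array was noted when its gap to the nearest other array exceeded Dixon's 95% critical share of the group's range. Of 22 groups tested (Nfat5 and the 10 Notch genes in both groups) 2 met this, and chance gives about 1 in 20. Hey2 in AdN5 replicate 3 was at 5.01, above the other AdN5 arrays at 4.82 to 4.84, a gap of 0.923 of the range. Without that array the log2 fold change of Hey2 was -0.32 (limma adjusted p = 0.202). Hes1 in AdPl replicate 1 was at 5.58, above the other AdPl arrays at 5.20 to 5.23, a gap of 0.918 of the range. Without that array the log2 fold change of Hes1 was -0.019, against -0.11 with all arrays.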

How the results depend on the processing

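Of the 10 Notch genes 0 were called under each of the 19 alternatives run. The adjusted p under 0.01 and the change of at least 1.5-fold are stricter rules on the main fit, so their 0 was fixed in advance. In the alternatives that were fitted anew, 8 of the 10 kept the sign of their log2 fold change wherever they had a value. The exceptions were Notch1, between -0.099 and 0.13 with an array left out, and Hey1, between -0.044 and 0.065. The count at an unadjusted p, an alternative set added after seeing the data, stayed between 3 and 5, while the share of all genes lay between 10.5% and 20.9%; among genes above the median of expression it was 4 of 7 tested, against 20.9%. The lowest adjusted p of any alternative was 0.0672 for Hey2, 0.0742 for Notch2 and 0.0860 for Rbpj. Dll4, Hey1 and Heyl have no value among genes above the median, which that filter leaves out. The Nfat5 value lay between -0.22 and -0.16 in all alternatives and passed in 0 of them.

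Of all genes, 192 were called. The count was 781 when a variance trend and robust options were used, 497 among genes above the median of expression, 30 with AdPl replicate 3 and AdN5 replicate 4 both left out, 42 at an adjusted p under 0.01, 110 at a change of at least 1.5-fold and 56 to 88 with an array left out. With the replicate number as a block it was 14. Same-numbered arrays did not clearly deviate together (correlations across genes from -0.079 to 0.055, and 3 of 8 arrays correlated best with their own number). The labels name no pairs, so the numbers are not taken as pairs. With 4 arrays per group this check cannot exclude pairing. Of the other pathway genes 1 was called, against 5 when a variance trend and robust options were used, 3 among genes above the median of expression, and 0 with the replicate block, with both those arrays left out, with any 1 array left out, at an adjusted p under 0.01 and at a change of at least 1.5-fold. Myh11, at -0.0012, was at 0.0094 with array weights, at 0.057 with both those arrays left out and between -0.048 and 0.048 with an array left out. With an array left out Myocd lay between -0.076 and 0.055, Des between -0.078 and 0.064 and Tcf21 between -0.066 and 0.12. Of 632 values of the 38 other named genes under the alternatives, 569 kept their sign and their side of the threshold, 40 lost a call, 9 gained one and 14, of Myh11, Myocd, Des and Tcf21, changed sign. Fits that dropped arrays or genes rested on fewer of them, and the cause of the other shifts was not tested. Of the 10 Notch genes Dll4, Hey1 and Heyl were dim, and the signal of dim genes over background was not measured.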
